A study of Mus musculus with 4 samples.

Results

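A set of 10 genes of cell killing was followed across lymphocytes of mouse melanoma: the granzymes Gzma, Gzmb, Gzmc, Gzmd, Gzme, Gzmf and Gzmk, the pore protein gene Prf1, the granule membrane gene Nkg7 and the death ligand gene Fasl. They were chosen by symbol, and all 10 were found among the 32285 genes of one count matrix and the 31053 genes of the other. Levels are given as CPM, the UMIs (distinct tagged cDNA molecules) of a gene per 1000000 UMIs of the cells in a group. These are counts of transcript 3′ ends, which do not scale with transcript length.

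The cells came from subcutaneous B16-ZsG tumors, a B16 melanoma line that makes the green protein ZsGreen (ZsG) under doxycycline, collected on day 8 from C57BL/6 mice. All groups share this tumor line and doxycycline in the drinking water. The age, sex and number of mice behind each library are not given in the sources used here, and the line was a bright subclone of transduced cells. ZsG in an immune cell thus marks material from the tumor. In the CD45 sort, CD45+ cells were divided by ZsG into 2 libraries, negative and positive, and in a separate T cell sort, CD45+ TCRb+ cells were divided in the same way. The CD45 sort took only bright cells as ZsG-positive, so that, by the study's account, most lymphocytes with ZsG fell in its ZsG-negative gate. Each of the 4 conditions is 1 library. No difference between conditions therefore has a replicate check or a p-value, and the 95% intervals below cover counting error only.

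The libraries held 5437 (CD45 ZsG-negative), 5168 (CD45 ZsG-positive), 1136 (T cell ZsG-negative) and 2396 (T cell ZsG-positive) barcodes with 47537541, 56510578, 10030971 and 22100220 UMIs. Labels of the T cell sort conflict. The text that names the matrix gives the library with 2396 barcodes as ZsG-positive, whereas the number in the description of the ZsG-negative sample points to it. The first reading is used here, and the other would reverse the sign of every ZsG comparison in the T cell sort. With the first, Foxp3+ T cells were 101 of 712 T cells in the ZsG-positive and 30 of 641 in the ZsG-negative library. The paper reports regulatory T cells as enriched among ZsG-positive T cells, which is the same direction. Cells were assigned to groups by UMIs of marker genes that exclude the 10 genes. Cd3e lay at 226 to 424 CPM in the T cells of the 4 libraries and at 2.64 or less in NK/ILC cells. Ncr1 lay at 368 to 452 in NK/ILC cells and at 0 in T cells. Both genes took part in setting these gates, so their levels describe the gates and do not check them. Despite the T cell sort, its libraries held 122 (ZsG-negative) and 608 (ZsG-positive) cells with the plasmacytoid dendritic cell (pDC) gene Siglech.

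Granzymes are serine proteases stored in the granules of killer lymphocytes. Perforin, the product of Prf1, opens the way for them into the target cell, where they cleave proteins and set off cell death. Fasl acts by a separate route, through the death receptor Fas on the target, and Nkg7 is a membrane protein of the granules needed for their full release. Granzyme A and granzyme B differ in the residues after which they cut, and mice carry a row of further granzyme genes near Gzmb.

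The granzyme genes of this set, other than Gzma and Gzmk, lie side by side. Gzmb, Gzmc, Gzmf, Gzmd and Gzme, with Gzmg and Gzmn, fill 145 kb of the minus strand of mouse chromosome 14 (GRCm38, 56117626 to 56262260). Gzma (113093825 to 113100981) and Gzmk (113171608 to 113225908) lie next to each other on chromosome 13, Prf1 on chromosome 10 (61297833 to 61304680), Nkg7 on chromosome 7 (43437073 to 43438249) and Fasl on chromosome 1 (161780689 to 161788495). Since the 5 neighbors differed widely in level and in the cells that held them, the 250 bases before the RefSeq start of each are shown (RefSeq, GRCm38.p6, minus strand, 5′ to 3′). Capitals mark matches to the letters TGTGGT (RUNX), TGANTCA (AP-1) and TGACGTCA (cAMP response element) on either strand.
Gzmb (chr14:56262335-56262584): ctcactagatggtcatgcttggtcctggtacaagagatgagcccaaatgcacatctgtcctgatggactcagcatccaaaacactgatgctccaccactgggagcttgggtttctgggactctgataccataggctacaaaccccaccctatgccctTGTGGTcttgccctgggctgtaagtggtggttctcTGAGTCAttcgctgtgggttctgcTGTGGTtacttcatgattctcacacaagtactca
Gzmc (chr14:56234658-56234907): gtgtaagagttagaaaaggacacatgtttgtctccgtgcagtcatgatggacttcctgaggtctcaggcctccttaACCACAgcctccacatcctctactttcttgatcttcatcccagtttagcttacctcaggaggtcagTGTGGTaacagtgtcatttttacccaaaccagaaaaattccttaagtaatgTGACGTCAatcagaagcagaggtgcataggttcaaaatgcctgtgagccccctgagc
Gzmd (chr14:56132594-56132843): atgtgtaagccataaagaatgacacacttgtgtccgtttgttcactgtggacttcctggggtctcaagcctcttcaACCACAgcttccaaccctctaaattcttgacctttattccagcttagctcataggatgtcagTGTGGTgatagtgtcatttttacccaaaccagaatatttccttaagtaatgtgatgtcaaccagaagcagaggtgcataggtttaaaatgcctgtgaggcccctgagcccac
Gzme (chr14:56120626-56120875): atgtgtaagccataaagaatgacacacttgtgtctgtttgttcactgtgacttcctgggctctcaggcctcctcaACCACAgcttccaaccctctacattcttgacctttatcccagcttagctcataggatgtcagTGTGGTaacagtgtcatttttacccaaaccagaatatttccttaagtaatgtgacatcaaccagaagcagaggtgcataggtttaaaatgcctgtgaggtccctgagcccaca
Gzmf (chr14:56211408-56211657): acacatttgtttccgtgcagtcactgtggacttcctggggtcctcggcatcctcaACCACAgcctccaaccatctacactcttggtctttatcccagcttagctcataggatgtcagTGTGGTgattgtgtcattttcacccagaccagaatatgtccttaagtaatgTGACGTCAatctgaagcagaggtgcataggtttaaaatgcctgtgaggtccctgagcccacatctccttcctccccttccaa

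The RUNX letters stood in the promoters of 8 of the 10 genes, all but Gzmk and Fasl, and in 14% of the 32851 mouse promoters of the same length. In Gzmb they began 93 and 34 bases before the start, whereas Gzmc, Gzmd, Gzme and Gzmf each had an antisense match (at -174, -174, -175 and -195) and a sense match (at -108, -112, -113 and -133). The promoters of Gzmc, Gzmd, Gzme and Gzmf are alike in sequence (71.48% to 94.82% identical), so their matches are not independent of each other. Gzmb alone held the AP-1 letters (-58 to -52), which 6.75% of promoters hold. The cAMP response element letters stood in Gzmc (-57 to -50) and Gzmf (-82 to -75), and in 1.55% of promoters. The T-box letters GGTGTGA stood in Gzmk and Nkg7 (3.33% of promoters), the NFAT core letters TGGAAA in Gzma (18.6%), and the letters TATAAA in none of the 10 (12.4%). A match describes the letters and does not show that a factor binds.

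Of the neighbors, Gzmd and Gzme were the closest copies. The promoters of Gzmd and Gzme were identical at 94.82% of alignment positions, with gaps counted as differences, and those of Gzmc and Gzmf at 71.48%. The Gzmb promoter shared 47.32% to 52.23% with the other 4. The transcripts of Gzmd and Gzme were identical at 90.35%, whereas that of Gzmb shared 48.08% to 49.79% with the other 4. The Gzmb transcript used was longer (1436 bases, against 894 to 964 for the other 4), which lowers its identity on this measure. Of the 411 words of 90 bases, the read length, in the last 500 bases of Gzmd, 7 (1.70%) also occur in Gzme, and no such word was shared by any other pair of the granzyme genes (Prf1, Nkg7 and Fasl were not searched). How UMIs divide between Gzmd and Gzme is therefore uncertain to a small extent.

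NK/ILC cells (2312 cells in the CD45 ZsG-negative library) held mostly Gzma, with Nkg7 the next in level. Gzma stood at 5839 CPM (5798 to 5879) and Nkg7 at 2067, ahead of Gzmc (1264), Gzmb (1213, 1194 to 1232), Prf1 (825.8) and Fasl (220.5). Gzmd (89.47), Gzme (41.51), Gzmf (15.96) and Gzmk (5.271) were low as sums. After each cell was thinned to 2000 UMIs, so that depth no longer differed, 90.5% of NK/ILC cells held a Gzma UMI, 95.1% Nkg7, 66.7% Prf1, 62.2% Gzmb and 39.6% Fasl. Gzmc, although at the level of Gzmb, was found in only 17.1% of the thinned cells (25.4% unthinned). The 98 NK/ILC cells of the CD45 ZsG-positive library were also led by Gzma (3989), Nkg7 (1758) and Gzmc (1353), ahead of Gzmf (1036), Gzmb (897.4), Gzmd (881.8) and Prf1 (726.1), and 1 cell held all of the Gzmf UMIs and most of the Gzmd UMIs. The T cell sort held only 21 and 35 NK/ILC cells.

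CD8 T cells with UMIs of both Pdcd1, which encodes PD-1, and Havcr2, which encodes TIM-3, the usual markers of exhausted cells, were led by Gzmb instead. In the CD45 ZsG-negative library their 380 cells held Gzmb at 2309 CPM (2280 to 2339), Nkg7 at 1527, Prf1 at 606.8 and Gzmc at 482.6. Gzma (52.21), Gzmk (46.75), Gzmf (62.46) and Fasl (70.95) all lay near 50 to 70, and Gzmd (2.635) and Gzme (8.979) lower. In the other libraries the Gzmb level of this gate was 2567 (CD45 ZsG-positive), 2790 (T cell ZsG-negative) and 2582 (T cell ZsG-positive), so that the lowest and the highest of the 4 libraries differed by less than the gap to NK/ILC cells. Gzmb was found in 83.9% of the thinned cells (96.3% unthinned), Prf1 in 56.3% (93.7%) and Fasl in 15.8% (81.6%). The raw shares of this gate are those of deep cells: its median was 26160.5 UMIs per cell, against 4561 in NK/ILC cells.

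CD8 T cells outside that gate were lower in Gzmb and higher in Gzma. In the CD45 ZsG-negative library, cells with Tcf7, a transcription factor gene of naive and stem-like T cells, and Pdcd1 but no Havcr2 (70 cells) held Gzmb at 366.3, Gzma at 245.1 and Prf1 at 55.01. Naive-like cells (Tcf7 with Ccr7, Lef1 or a further marker gene; 191 cells) held Gzmb at 188.6, Gzma at 134.8 and Prf1 at 45.19, and their Nkg7 still stood at 850.1, found in 74.3% of thinned cells. The remaining 217 CD8 T cells held Gzmb at 980.9, Gzma at 476.3, Prf1 at 241.3 and Gzmk at 70.65. These remaining cells had the highest Gzmk level of the CD45 ZsG-negative gates, and they did so in the T cell sort too, with 149.2 in the ZsG-negative and 152.6 in the ZsG-positive library.

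Foxp3+ T cells, the regulatory T cells, held Gzmb and Nkg7, with little of the other 8 genes. Gzmb stood at 842.7 (782.8 to 906.1) in the 48 cells of the CD45 ZsG-negative library, 479.6 in the 22 of the ZsG-positive library, and 1386 and 1903 in the 30 and 101 of the T cell ZsG-negative and ZsG-positive libraries. Nkg7, in the same order, was 576.8, 720.8, 536.7 and 651.2, above Gzmb in the CD45 ZsG-positive library and below it in the other 3. Prf1 was 16.12, 58.95, 3.554 and 62.48. Gzmd, Gzme, Gzmf and Gzmk had no UMI in the 48 cells of the CD45 ZsG-negative library, which allows a level of up to 3.45 (3 UMIs). Their Gzma level of 52.96 there came from 46 UMIs, of which 1 cell held 35. Cd4+ Foxp3- T cells (47 cells) held Nkg7 at 1108, Gzma at 353.8, of which 1 cell held 135 of the 151 UMIs, and Gzmb at 313.9.

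Cells that should lack these genes set the background. In pDC of the CD45 ZsG-negative library (202 cells; median 8458.5 UMIs), Gzma stood at 28.07 and was found in 4.95% of thinned cells, Nkg7 at 17.4 (4.46%), Gzmb at 11.79 (3.96%), Prf1 at 9.543 (2.48%), Gzmc at 3.929 and Fasl at 2.245. For the T cell libraries, pDC held Gzma at 1.821 and 1.354 and Gzmb at 0.9106 and 1.354. Macrophage-gene-high cells of the CD45 ZsG-positive library (721 cells; median 13026 UMIs) held Gzma at 12.87, with 48 of 138 UMIs in 1 cell, Gzmb at 3.918 and Prf1 at 0.8395. Values near these, such as Gzma in Foxp3+ T cells, lie close to the background and are not read as expression. The background of Gzma was highest in the library richest in NK/ILC cells.

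**Figure D1:**
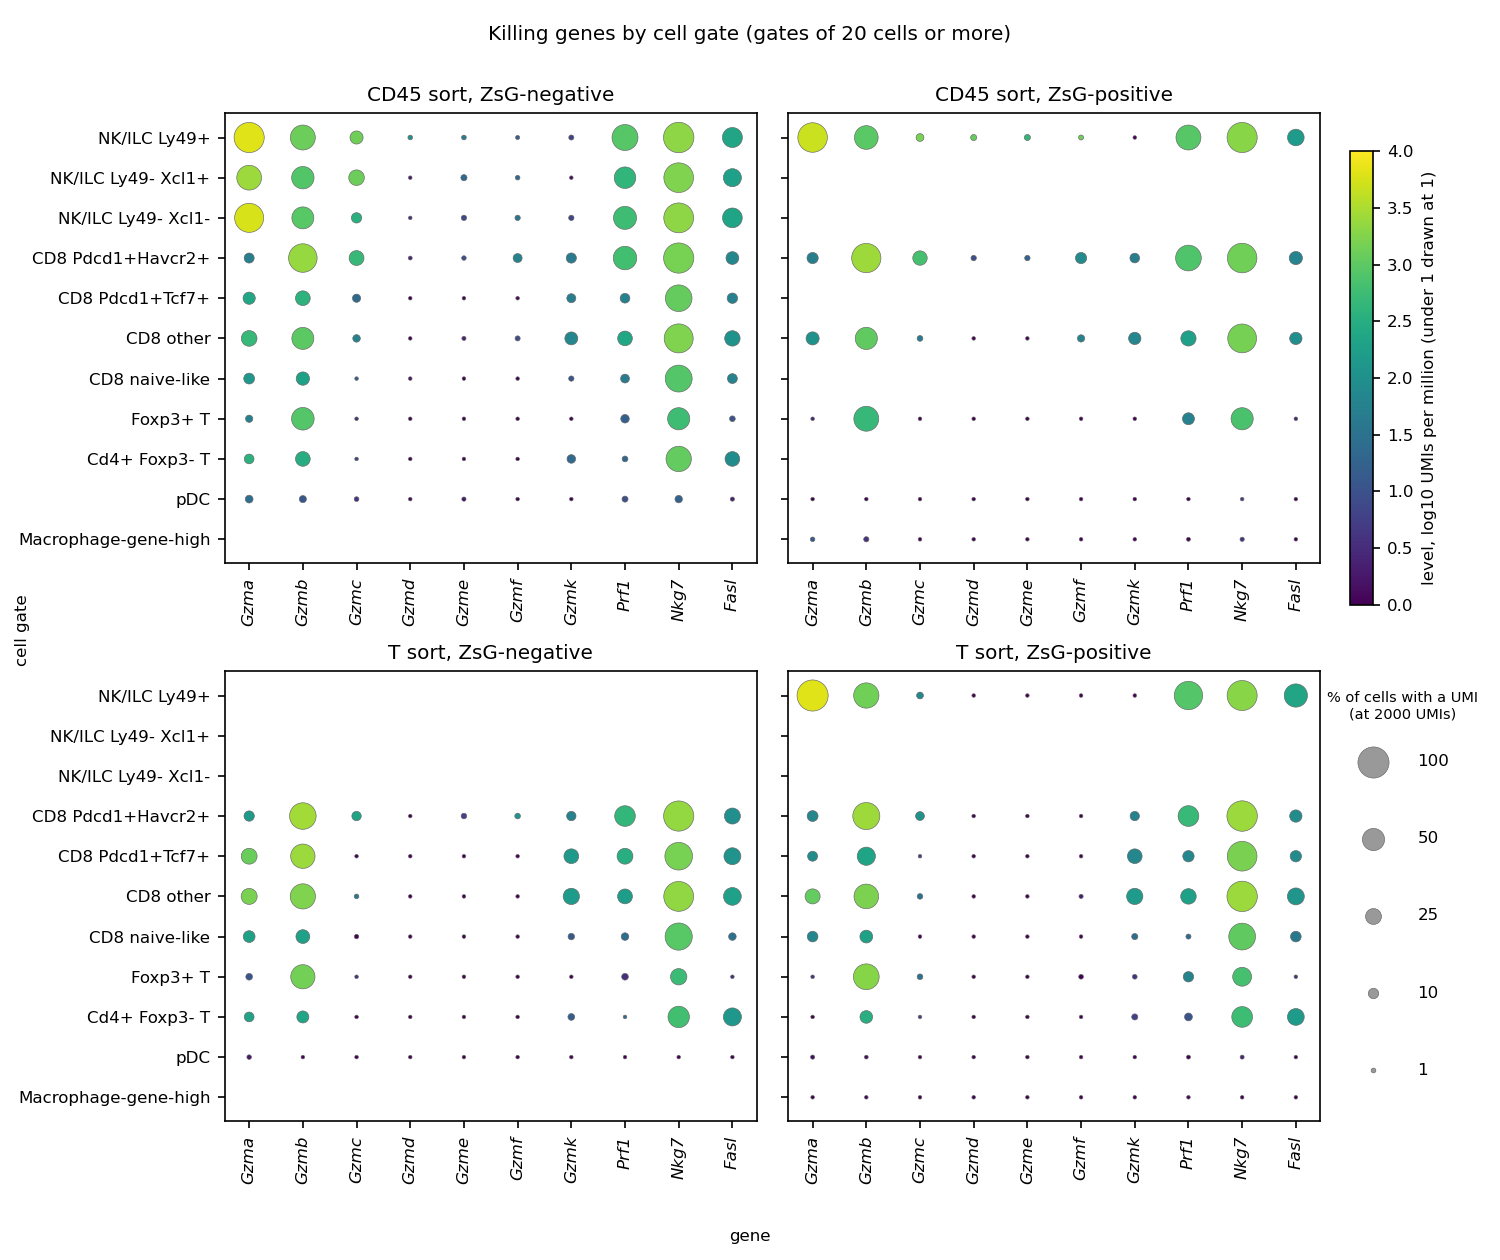
Dot plot of the 10 genes (columns) in the cell groups with at least 20 cells (rows), in 1 panel for each library. Color gives the log10 of the level in CPM (levels under 1 are drawn at 1), and dot size the percent of cells with a UMI after thinning to 2000 UMIs. In the CD45 ZsG-negative library Gzma is brightest in Ly49+ NK/ILC cells (6274, in 93.8% of cells) and Gzmb in Pdcd1+ Havcr2+ CD8 T cells (2309), while the dots of pDC are small.

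The make-up of the granzyme UMIs differed between the cell types. In Ly49+ NK/ILC cells of the CD45 ZsG-negative library, Gzma made up 69.7% of the UMIs of the 7 granzymes, Gzmc 14.3% and Gzmb 14.1%. In Pdcd1+ Havcr2+ CD8 T cells Gzmb made up 77.9%, Gzmc 16.3% and Gzma 1.76%. The Gzmb share of this gate was 75% in the CD45 ZsG-positive, 83.4% in the T cell ZsG-negative and 91.8% in the T cell ZsG-positive library, above that of the remaining CD8 T cells in 3 libraries (61.5% in CD45 ZsG-negative, 48.9% and 55.7% in the T cell libraries) but below it in the CD45 ZsG-positive library (79%, 48 cells). Foxp3+ T cells had 93.7%, 99.4%, 99% and 97.9% Gzmb in the 4 libraries. Cd4+ Foxp3- T cells had 45%, 84%, 51.7% and 96.6% in the same order, so that they came close in the T cell ZsG-positive library. The second of these shares rests on 12 cells and the last on 58 granzyme UMIs.

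**Figure D2:**
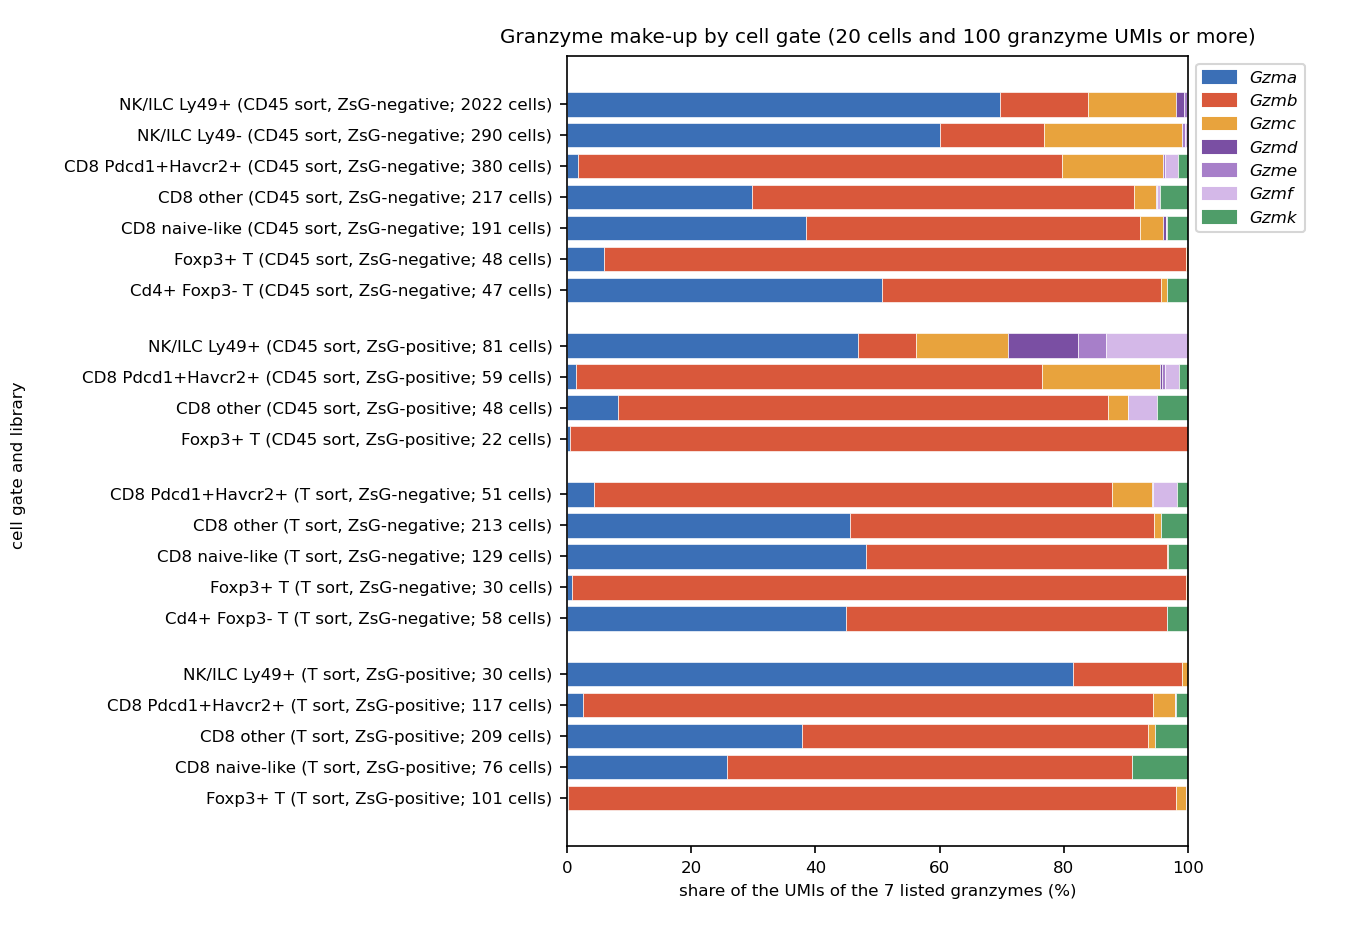
Share of each of the 7 granzymes in all granzyme UMIs (percent), by cell group and library, for NK/ILC cells by Ly49, Pdcd1+ Havcr2+, naive-like and remaining CD8 T cells, Foxp3+ and Cd4+ Foxp3- T cells, where at least 20 cells and 100 granzyme UMIs were held. Gzma takes 69.7% in Ly49+ NK/ILC cells, and Gzmb 77.9% in Pdcd1+ Havcr2+ CD8 T cells and 93.7% in Foxp3+ T cells of the CD45 ZsG-negative library.

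Granzyme and perforin are needed together for granule killing, and the cell types differed in how often both were found in 1 cell. At 2000 UMIs a cell, 65.3% of NK/ILC cells of the CD45 ZsG-negative library (63.3% to 67.2%, exact Clopper-Pearson interval) held at least 1 granzyme UMI and a Prf1 UMI. The share was 52.6% (47.5% to 57.7%) in Pdcd1+ Havcr2+ CD8 T cells, 15.7% in the remaining CD8 T cells, 3.66% in naive-like cells and 6.25% in Foxp3+ T cells, against 0.99% in pDC. Foxp3+ T cells thus had a granzyme in most cells (45.8% had none) but seldom Prf1 beside it. For the T cell sort, the share in Pdcd1+ Havcr2+ cells was 39.2% (ZsG-negative) and 36.8% (ZsG-positive), and that in Foxp3+ T cells 3.33% and 3%. Of NK/ILC cells, 51.7% held 2 kinds of granzyme and 12.9% 3 or more, and 5.03% held none.

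How a level was spread over cells differed from gene to gene. In the 2312 NK/ILC cells of the CD45 ZsG-negative library, 440 cells held 50% of the Gzma UMIs, 635 of the Nkg7 UMIs, 306 of Prf1 and 219 of Gzmb. For Gzmc 22 cells were enough, and for Gzmd 2, for Gzme 3 and for Gzmf 2. The 10% of cells with the most UMIs of each gene held 33.7% of Gzma, 97.2% of Gzmc and 100% of Gzmd. In the 858 CD8 T cells the order differed for Gzma: 20 cells held 50% of its UMIs and the top 10% held 85%, against 28.3% for Nkg7, 51.2% for Gzmb, 60.3% for Gzmk and 93.6% for Gzmc. Gzma in CD8 T cells was thus a gene of few cells, while in NK/ILC cells it was spread over nearly all of them.

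**Figure D3:**
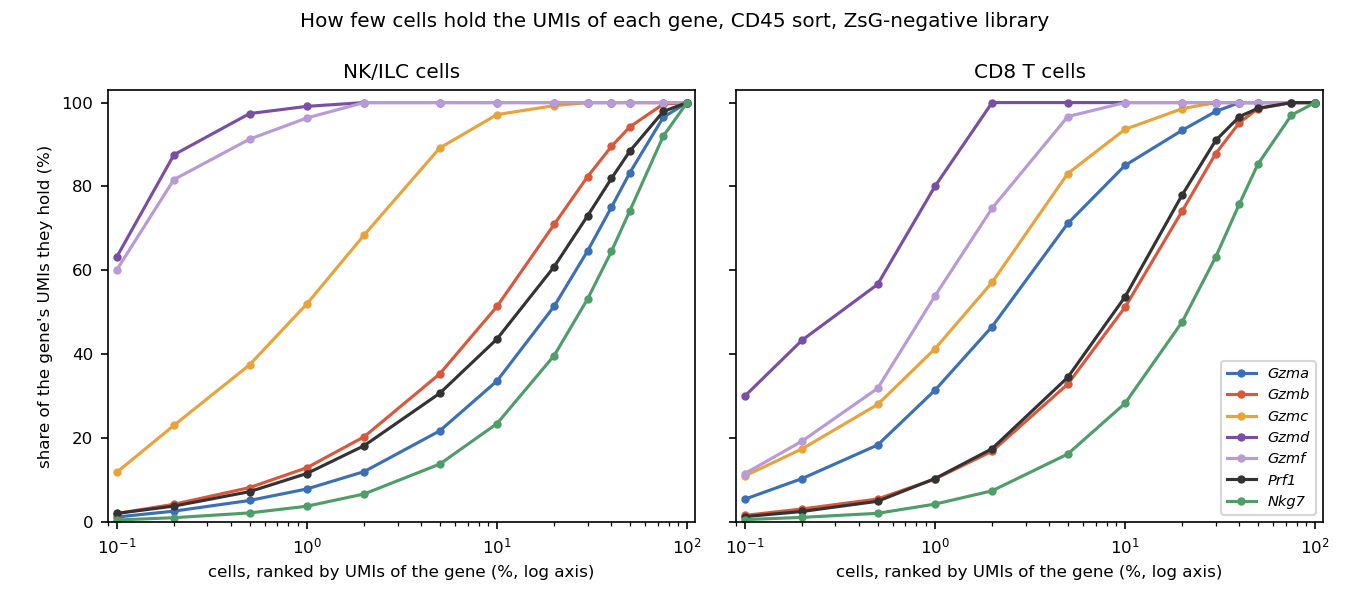
Share of a gene's UMIs (percent) held by the cells with the most of it, against the percent of cells counted (log axis), for NK/ILC and CD8 T cells of the CD45 ZsG-negative library. In NK/ILC cells the top 10% holds 33.7% of Gzma and 97.2% of Gzmc, and in CD8 T cells 85% and 93.6%.

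The Gzmd, Gzme and Gzmf UMIs came from few cells, and these differed by cell type in which gene they held. In the CD45 ZsG-negative library, 42 of 4699 cells held at least 10 UMIs of the 3 genes together, and they held 96.7% of the Gzmd, 89.1% of the Gzme and 80.7% of the Gzmf UMIs of the library. Of the 22 that were CD8 T cells, 20 had more Gzmf than Gzmd and Gzme together, with 540 Gzmf, 20 Gzmd and 66 Gzme UMIs over the 22 cells. Of the 17 that were NK/ILC cells, 13 had it the other way, with 181 Gzmf, 1192 Gzmd and 518 Gzme UMIs. Their Gzmc UMIs numbered 1815 in the CD8 T cells and 4011 in the NK/ILC cells. The NK/ILC cell with the most held 1090 Gzmc, 513 Gzmd and 171 Gzme UMIs, 1 of Gzmf and none of Gzma, among 31458 UMIs. Deep cells were over-represented: the median of the 42 cells was 26870 UMIs, and 31 held a UMI of the proliferation gene Mki67. The part of depth and cycling in this pattern was not tested.

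The other libraries held few such cells. In the CD45 ZsG-positive library 8 of 4123 cells passed the same limit, and the 5 that were CD8 T cells all had more Gzmf. Both of its NK/ILC cells had more Gzmd and Gzme together than Gzmf, and 1 of them held 532 Gzmf, 428 Gzmd and 150 Gzme UMIs, a more even mix. Of the T cell sort, 2 cells of the ZsG-negative library, both CD8 T cells with mostly Gzmf, and 1 cell of the ZsG-positive library passed.

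**Figure D4:**
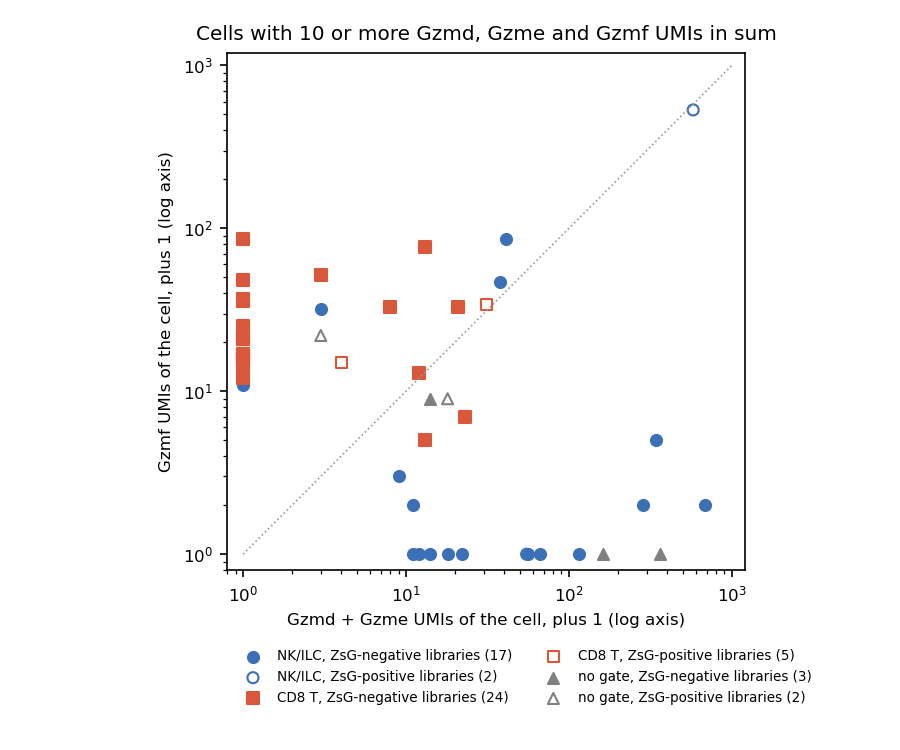
Gzmf UMIs against the sum of Gzmd and Gzme UMIs, each plus 1 on a log axis, in single cells with at least 10 UMIs of the 3 genes. Color and shape give the cell type, filled points are cells of the ZsG-negative and open points cells of the ZsG-positive libraries of both sorts, and the dotted line marks equal UMIs. Within the CD45 ZsG-negative library, 20 of 22 CD8 T cells have more Gzmf, and 13 of 17 NK/ILC cells have more Gzmd and Gzme.

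Cells with much Gzmc had less Gzma. In the CD45 ZsG-negative library, the 186 NK/ILC cells with at least 10 Gzmc UMIs held Gzma at 3735 CPM, against 6695 in the 1724 cells without Gzmc. They were higher in Gzmb (1625 against 1059) and Prf1 (1229 against 712), and lower in Nkg7 (1213 against 2330) and Fasl (120 against 256). They were also deeper (median 12352 against 4250 UMIs) and held more Mki67 (227 against 35.5 CPM), and the part of either in these differences was not tested. Among CD8 T cells, the 246 with a Gzmc UMI held Gzmb at 2596 and Gzmf at 86.3, against 1096 and 7.79 in the 612 without, and again had the lower Gzma (88.7 against 172), Gzmk (33 against 60.4) and Fasl (61.4 against 86.6), at median depths of 29283 and 7604. Gzma and Gzmk went together in CD8 T cells: the 297 with Gzma held Gzmk at 68.7, against 33.4 in those without.

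Itga1 encodes an integrin of tissue-resident NK cells and ILC1. The 95 NK/ILC cells of the CD45 ZsG-negative library with an Itga1 UMI held Gzmc at 5939 CPM, against 971 in the 2217 cells without, a log2 ratio of 2.61 (2.57 to 2.66). Gzmd stood at 1039 against 29.8 and Gzme at 397 against 19.1. Of the 839 Gzmd UMIs of the Itga1+ cells, 513 and 259 were in 2 cells. Gzma (5861 against 5837) and Gzmb (1156 against 1216) were nearly equal in both groups, and Nkg7 was lower with Itga1 (1525 against 2101). Macrophage genes moved with the split, with 4 markers summing to 1424 CPM in the Itga1+ cells and 249 in all NK/ILC cells, and their part was not tested.

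Ly49 receptors mark mature NK cells, and the question was how the genes differ with them in the CD45 ZsG-negative library (2022 Ly49+ and 290 Ly49- cells). Gzma stood at 6274 in Ly49+ and 3009 in Ly49- cells, a log2 ratio of 1.06 (1.02 to 1.10), and Prf1 at 885.2 and 440.2 (1.01, 0.90 to 1.11). Gzmb (1270 and 839.2, log2 0.60), Gzmc (1287 and 1117, log2 0.20), Nkg7 (2117 and 1739, log2 0.28) and Fasl (225.2 and 189.4, log2 0.25) differed by less than 2-fold, as did Gzmf, the 1 gene that was lower in Ly49+ cells (14.53 and 25.25, log2 -0.80). Gzma and Prf1 thus lay just past 2-fold, and Gzma was found in 93.8% of thinned Ly49+ and 67.9% of thinned Ly49- cells, Prf1 in 69.3% and 48.6%. All 10 genes had the 20 UMIs set as the minimum, and 5 were at least 2-fold higher and 0 lower in Ly49+ cells, where 3.49% of all genes were higher and 3.46% lower. The median log2 ratio was 0.80 over the 10 genes and 0.00 over all genes. The other 3 were Gzmd (1218 against 4 UMIs), Gzme (531 against 36) and Gzmk (68 against 4; interval -0.03 to 3.30). Gzmd and Gzme rest on a few cells. The cell with the most Gzmd, Gzme and Gzmf UMIs held 513 Gzmd, 171 Gzme and 152 Prf1 UMIs. Without that cell 3 genes were past 2-fold. The genes that fell below 2-fold were Gzme and Prf1, of which Prf1 had lain just past it. When cells were thinned before the gates were set, 0 genes were at least 2-fold higher and 3 were at least 2-fold lower, Gzmd and Gzme among them. Among the Ly49- cells, the 229 with a UMI of Xcl1, a chemokine gene, held Gzma at 2511 and Gzmc at 1263, and the 61 without held Gzma at 5638 and Gzmc at 348.0.

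Pdcd1+ Havcr2+ cells were compared with all other CD8 T cells in each of the 4 libraries. The gate rests on these 2 genes, and no further marker of exhaustion was checked. The sum of 2 cell cycle genes was higher in it in each library. It was 415 against 75.5 CPM (T cell ZsG-negative) and 413 against 136 (T cell ZsG-positive). In the CD45 sort it was 663 against 323 (ZsG-negative) and 1028 against 453 (ZsG-positive). The part of cycling in the values below was not tested. Gzmb was 2790 against 1196 (T cell ZsG-negative), 2582 against 1062 (T cell ZsG-positive), 2309 against 618.7 (CD45 ZsG-negative) and 2567 against 891.7 (CD45 ZsG-positive), with log2 ratios of 1.22, 1.28, 1.90 and 1.53. Prf1 was 436.7 against 125.1, 501.6 against 137.2, 606.8 against 145.1 and 797.2 against 156.3, with log2 ratios of 1.80, 1.87, 2.06 and 2.35. Gzmc was raised the most among the genes with enough UMIs in all 4 libraries, with ratios of 3.31, 2.40, 3.73 and 4.12. These 3 genes lay past 2-fold in all 4 libraries, with both groups of each library apart beyond their counting intervals. Few cells carried Gzmc, which these intervals do not cover: 2, 5, 14 and 3 cells held 50% of its UMIs in CD8 T cells, in the same order.

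Gzma went the other way. It stood at 146.8 against 1025, 70.85 against 701.1 and 52.21 against 326.6 in the T cell ZsG-negative, T cell ZsG-positive and CD45 ZsG-negative libraries (log2 ratios -2.80, -3.31 and -2.65), while in the CD45 ZsG-positive library, with 59 and 63 cells, it stood at 51.86 against 92.37 (-0.83). Gzmk was lower in the T cell libraries (-0.75 and -0.98) and nearly level in the CD45 libraries (-0.05 and -0.36). Nkg7 (0.44, 0.27, 0.21 and 0.03) and Fasl (-0.31, -0.21, -0.23 and -0.41) stayed within 2-fold in all 4. Gzmf was 62.46 against 4.563 in the CD45 ZsG-negative library (3.77) but 1.034 against 1.279 in the T cell ZsG-positive library, where it had 5 UMIs in all.

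Of the 10 genes, 8, 7, 10 and 9 had enough UMIs in the T cell ZsG-negative, T cell ZsG-positive, CD45 ZsG-negative and CD45 ZsG-positive libraries. At least 2-fold higher were 4, 3, 6 and 4 of them, where 9.63%, 6.67%, 7.79% and 6.51% of all genes were, and at least 2-fold lower were 1, 1, 1 and 0, where 13.7%, 8.15%, 10.2% and 5.47% were. Beyond Gzmb, Prf1 and Gzmc, the T cell ZsG-negative library added Gzmf (106 UMIs against 0, with 85 in 1 cell). The CD45 ZsG-positive library added Gzme (22 UMIs against 0, with 20 in 1 cell), and the CD45 ZsG-negative library Gzmd, Gzme and Gzmf. The median log2 ratios of the members were 0.83, 0.27, 1.89 and 0.63, beside 0.03, 0.08, 0.07 and 0.09 over all genes. The Pdcd1+ Havcr2+ cells were deeper in each library (12853, 12810, 26160.5 and 19772 UMIs at the median), and a gate that asks for a UMI of 2 genes takes deeper cells. With each cell thinned to 2000 UMIs before the gates were set, Gzmb and Prf1 lost their difference in the CD45 ZsG-positive library (-0.0081 and -0.51), and the counts of higher genes were 1, 1, 2 and 0.

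ZsG-positive and ZsG-negative CD8 T cells of the T cell sort (435 and 421 cells) were compared for tumor material and killing genes. Gzma stood at 416.3 in ZsG-positive and 808.3 in ZsG-negative cells, a log2 ratio of -0.96 (-1.04 to -0.87). Prf1 stood at 301.9 and 202.0 (0.58, 0.44 to 0.72), Nkg7 at 2238 and 1776 (0.33) and Gzmb at 1749 and 1589 (0.14, 0.09 to 0.19). Gzmk was level (86.21 and 87.98, log2 -0.03), and Fasl (91.59 and 113.1, log2 -0.30) and Gzmc (56.31 and 70.03, log2 -0.31) were slightly lower in ZsG-positive cells. None of these 7 was past 2-fold. For Gzmc the cells went the other way: without thinning, 36 ZsG-positive and 15 ZsG-negative cells had a UMI. Of its 234 UMIs in ZsG-negative cells, 1 cell held 73. The Gzma gap came from few cells: 32 ZsG-positive and 52 ZsG-negative cells had at least 10 Gzma UMIs, and 16.2% and 19.8% of thinned cells had any. Of 8 genes with enough UMIs, 0 were at least 2-fold higher and 1 was lower, where 3.21% and 2.56% of all genes were, and the median was -0.17 beside 0.03 over all genes. The gene past 2-fold was Gzmf, with 5 UMIs against 106, of which 1 ZsG-negative cell held 85 (-4.76, -6.42 to -3.50). The sum of 4 macrophage markers was 105 CPM in ZsG-positive and 107 in ZsG-negative cells, and Mki67 stood at 96 and 62.8, whose part was not tested.

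Within the CD8 gates of the same sort, Gzma stayed lower in ZsG-positive cells. It stood at 70.85 against 146.8 in Pdcd1+ Havcr2+ cells (-1.05), at 85.48 against 1215 in Tcf7+ Pdcd1+ cells (-3.83), at 73.16 against 193.5 in naive-like cells (-1.40) and at 1087 against 1564 in the remaining cells (-0.52). Where 2 UMIs of the marker that defines each gate were asked for, the first of these turned to 0.27. Gzmb was level in 3 of the 4 (-0.11, -0.08 and -0.07) but stood at 213.7 against 2505 in Tcf7+ Pdcd1+ cells (-3.55), with Prf1 at 71.23 against 321.2 (-2.17). This gate held only 33 ZsG-positive and 28 ZsG-negative cells. Prf1 stood at 501.6 against 436.7 in Pdcd1+ Havcr2+ cells, 196 against 162 in the remaining cells and 23.78 against 25.66 in naive-like cells. Pdcd1+ Havcr2+ cells, the gate highest in Prf1, were 117 of the 435 ZsG-positive and 51 of the 421 ZsG-negative CD8 T cells. The part of this make-up in the ratios over all CD8 T cells was not tested. Past 2-fold, Pdcd1+ Havcr2+ cells had 0 of 8 genes higher and 3 lower (Gzma, Gzmc and Gzmf), where 4.58% and 1.5% of all genes were. Single ZsG-negative cells weigh on these: 1 held 73 of the 179 Gzmc UMIs of that side, and 1 held 85 of the 106 Gzmf UMIs. Tcf7+ Pdcd1+ cells had 0 of 6 higher and 3 lower, beside 5.78% and 6.51%, naive-like cells 0 and 1 of 6, beside 2.32% and 3.75%, and the remaining cells 0 and 0 of 7, beside 2.72% and 2.52%. In all T cells outside the CD8 and CD4 gates, Gzmb stood at 1286 in ZsG-positive and 447.0 in ZsG-negative cells (1.52), the 1 gene of 7 higher there and none lower, beside 7.36% and 3.47% of all genes. In these cells the macrophage markers summed to 177 and 17.0 CPM, and 2 cell cycle genes to 220 and 49.8, and their part was not tested.

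Across the gates of both sorts, Gzma alone kept 1 direction with the processing used here, among the 7 genes that could be compared in at least 4 gates of each sort. Of its ratios past 2-fold, 1 turned under an alternative, to the 0.27 given above. Turns of ratios within 2-fold were not counted. In the T cell sort it was lower in ZsG-positive cells in 6 of 6 gates with enough UMIs (4 past 2-fold; median log2 ratio -1.23, range -3.83 to -0.52), and in the CD45 sort in 5 of 5 (3 past 2-fold; median -2.10, range -4.30 to -0.01). The lowest of these, -4.30, is that of Foxp3+ T cells (1 UMI against 46, of which 1 cell held 35), whose Gzma lay near the background. Without them Gzma was lower in 4 of 4 gates (2 past 2-fold; median -1.32, lowest -2.49), but 1 of these, Pdcd1+ Havcr2+ CD8 T cells, was level. Gzma there stood at 51.86 CPM in ZsG-positive and 52.21 in ZsG-negative cells (log2 -0.01). That is about the level of Foxp3+ T cells in the ZsG-negative library (52.96). In the T cell sort, 1 of the 4 gates past 2-fold was Cd4+ Foxp3- T cells, with no Gzma UMI against 67. Nearly all of the 67 lay in 1 ZsG-negative cell. Fasl was lower in 4 of 6 and in 4 of 4 gates, and none was past 2-fold. Nkg7 was higher in 6 of 7 gates of the T cell sort and lower in 4 of 5 of the CD45 sort, again with none past 2-fold. Gzmb was higher in 3 of 7 and 3 of 5, with medians of -0.07 and 0.07, and Prf1 in 4 of 6 and 2 of 5. Gzmc was higher in 2 of 4 gates of either sort, and Gzmk in 2 of 5 and 1 of 4. Under the other reading of the T cell sort's labels, Gzma would be the higher in ZsG-positive cells of that sort. The 2 sorts are separate experiments, but the gates of a sort share their libraries and are not replicates. In the CD45 sort the Gzma background moved in the same direction, from 28.07 in pDC of the ZsG-negative library to no UMI in 26 pDC of the ZsG-positive library, and its part was not tested. Those of the T cell sort were at 1.821 and 1.354.

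Foxp3+ T cells gave the highest Prf1 ratio of the comparison in both sorts. Prf1 of the T cell sort stood at 62.48 CPM in 101 ZsG-positive cells (64 UMIs, 21 cells, at most 9 in a cell) and at 3.554 in 30 ZsG-negative cells (1 UMI), a log2 ratio of 4.14 (1.61 to 9.46). In the CD45 sort it stood at 58.95 in 22 ZsG-positive cells (22 UMIs) and 16.12 in 48 ZsG-negative cells (14 UMIs), a ratio of 1.87 (0.84 to 2.95). After thinning, a Prf1 UMI was found in 10% and 3.33% of cells in the T cell sort and in 13.6% and 6.25% in the CD45 sort. Gzmb stood at 1903 and 1386 in the T cell sort (0.46, 0.30 to 0.62), and at 479.6 and 842.7 in the CD45 sort (-0.81, -1.06 to -0.58), so that its direction differed between the sorts. Of the 4 genes with enough UMIs in the CD45 sort 1 was at least 2-fold higher (Prf1) and 1 lower (Gzma), where 4.15% and 4.54% of all genes were. Gzmc in the T cell sort (32 UMIs against 1, log2 3.14, 0.55 to 8.48) came from 1 cell with 28 UMIs. Of the 4 genes with enough UMIs in the T cell sort 2 were at least 2-fold higher and 0 lower, where 6.64% and 3.39% of all genes were. The macrophage markers were at 0 in these ZsG-negative cells of the T cell sort and summed to 34.2 in the ZsG-positive cells, and in the CD45 sort they summed to 1578 and 2347. Their part in the Prf1 values was not tested.

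In Cd4+ Foxp3- T cells of the T cell sort (40 ZsG-positive and 58 ZsG-negative), Gzma had no UMI against 67 (at least 12.1-fold lower, with 0 set at 3 UMIs), but 1 ZsG-negative cell held 58 of the 67. Gzmb (318.2 and 236.1, log2 0.43), Nkg7 (551.2 and 613.3, log2 -0.15) and Fasl (153.4 and 138.0, log2 0.15) had intervals that took in 0. The other 6 genes had under 20 UMIs. The single gene past 2-fold stands beside 5.38% of all genes lower and 3.37% higher. Macrophage markers summed to 2716 in the ZsG-positive and 9.20 in the ZsG-negative cells.

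In the CD45 sort, CD8 T cells (122 ZsG-positive and 858 ZsG-negative) showed Gzma at 64.15 and 131.5 (-1.04, -1.32 to -0.77), Gzmb at 2059 and 1821 (0.18), Prf1 at 602.7 and 473.4 (0.35) and Gzmc at 464.2 and 353.6 (0.39). Nkg7 (1345 and 1468), Fasl (69 and 74.46) and Gzmk (51.21 and 47.19) lay within 0.13 of 0 on the log2 scale. Of the 10 genes, Gzmd (12 against 30 UMIs, of which 1 ZsG-positive cell held 10, log2 1.64) was at least 2-fold higher and Gzma lower, where 4.51% and 3.55% of all genes were. By gate, Gzma was level in Pdcd1+ Havcr2+ cells (51.86 and 52.21, log2 -0.01) and lower in the remaining CD8 T cells (111.1 and 476.3, log2 -2.10). In the first of these gates 1 of 10 genes was past 2-fold higher (Gzmd) and 0 lower, beside 4.14% and 3.62% of all genes, and in the other 1 of 8 was higher (Gzmf, 29 UMIs against 17) and 1 lower, beside 4.76% and 6.34%. For this Gzmf ratio, 1 ZsG-positive cell held 20 of the 29 UMIs and 1 ZsG-negative cell 14 of the 17. T cells of this sort outside the CD8 and CD4 gates had 0 of 7 higher and 4 lower (Gzma, Gzmc, Gzmk and Prf1), beside 8.07% and 10.5%. Of these, Gzmc turned to 0.67 with no macrophage gene limit, Gzmk to 0.75 with the mean of per-cell values and Prf1 to 0.039 without the 5% of cells with the most UMIs, and the macrophage markers summed to 2832 in ZsG-positive and 203 in ZsG-negative cells of that gate. The 4 macrophage markers were all higher in the ZsG-positive CD8 T cells, with a sum of 780 against 101 CPM, and Mki67 stood at 378 against 228. What part they have in these values was not tested.

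NK/ILC cells of the CD45 sort (98 ZsG-positive and 2312 ZsG-negative) were lower in Gzma (3989 and 5839, log2 -0.55, -0.61 to -0.49), Gzmb (897.4 and 1213, log2 -0.43), Fasl (144.1 and 220.5, log2 -0.61), Nkg7 (-0.23) and Prf1 (-0.19) when ZsG-positive, and none of these was past 2-fold. Gzmd (881.8 and 89.47, log2 3.30), Gzme (350.4 and 41.51, log2 3.08) and Gzmf (1036 and 15.96, log2 6.02) were past it, but 1 ZsG-positive cell held 428 of 453, 150 of 180 and 532 of 532 of their UMIs. Without that cell Gzmd stood at -0.83 and Gzme at 0.54, and Gzmf, with no UMI left and 0 set at 3 UMIs, at -1.40. Higher were thus 3 of 10 genes and lower 0, where 7.01% and 5.48% of all genes were, and the medians were -0.09 over the 10 genes and 0.00 over all. Gzmk had no UMI against 72, and 3 UMIs in the ZsG-positive cells would stand at 5.84, so that no difference was detectable at this depth. The macrophage markers summed to 483 and 249.

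**Figure D5:**
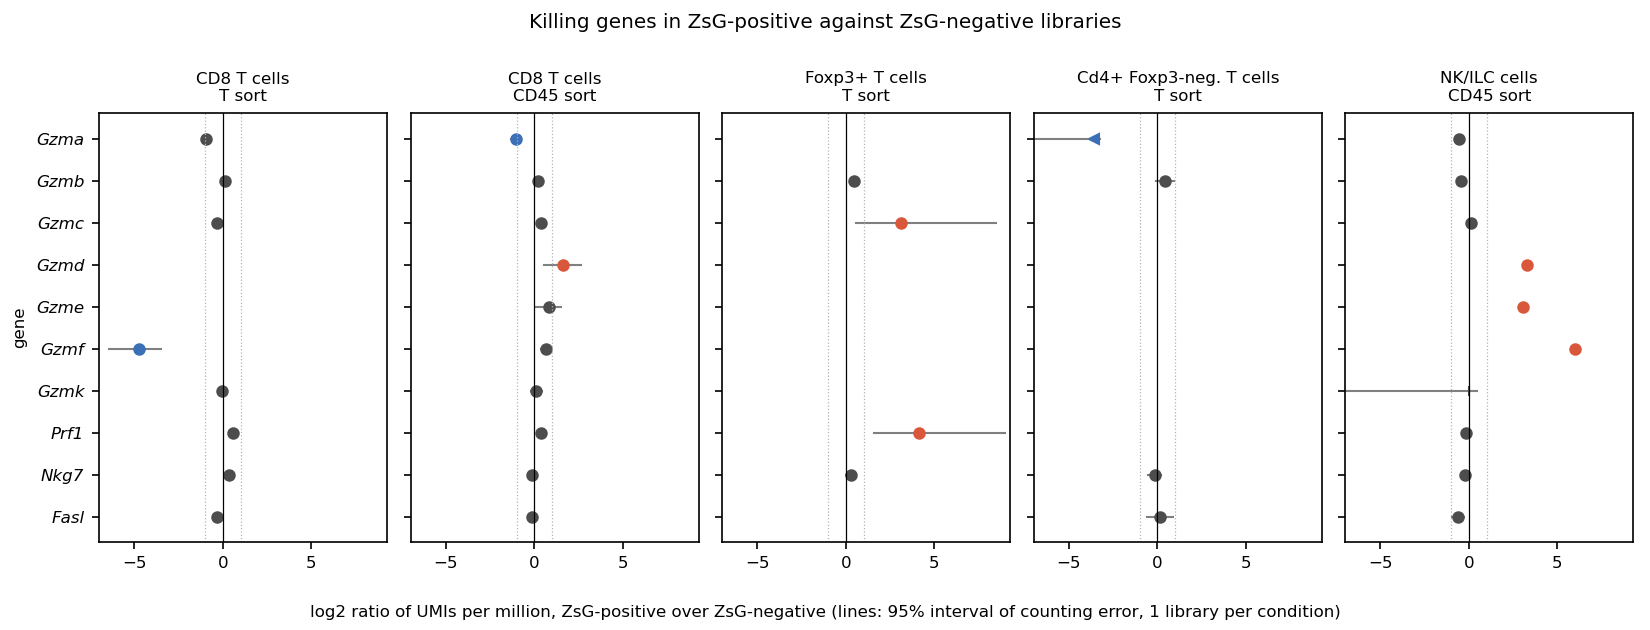
Log2 ratio of each gene, ZsG-positive over ZsG-negative, in 5 cell groups of the T cell or CD45 sort, for genes with at least 20 UMIs. Lines are 95% intervals for counting error, cut near the panel edges where longer, and dotted lines mark 2-fold. Red and blue points lie at least 2-fold higher and lower, and grey points lie within 2-fold. A triangle (below 0) or a vertical bar (otherwise) is a bound where 1 side has no UMI. Gzma lies below 0 in CD8 T cells of both sorts (-0.96 and -1.04), and Prf1 lies above 2-fold in Foxp3+ T cells of the T cell sort (4.14).

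A list of 33 further genes of the killing pathway was counted in the same way. In CD8 T cells of the T cell sort 30 had enough UMIs, and 2 were at least 2-fold higher in ZsG-positive cells and 0 lower: the cytokine genes Ifng (3296 and 868.8, log2 1.92) and Lta (35.5 and 15.6, log2 1.19). The granzyme inhibitors and granule release genes with enough UMIs stayed within 2-fold there. In Foxp3+ T cells 1 of 24 was past 2-fold, Tnf (23 against 2 UMIs, log2 1.66, -0.36 to 4.79). In Cd4+ Foxp3- T cells 3 of 16 were higher (Ctsc, which activates granzymes, 2.32; Zeb2, 1.89; Serpinb9, 1.01) and 3 lower (Lta, 2 against 24 UMIs, -2.70, -5.82 to -0.69; Ifng, -1.87; Prdm1, 3 against 17 UMIs, -1.61, -4.03 to 0.18). In the CD45 sort, Tnf and Ctsc were higher in ZsG-positive CD8 T cells (3.81 and 1.55) and in ZsG-positive NK/ILC cells (3.93 and 1.93), beside the macrophage markers given above. The others past 2-fold were Zeb2 (1.28), Serpinb9b (1.17) and Tcf7 (-1.01) in CD8 T cells (4 of 31 higher, 1 lower), and Gzmg (5.61), Serpinb9b (-2.56), Gzmm (1 against 155 UMIs, log2 -2.54, -7.86 to -0.04) and Lta (1 against 71, log2 -1.42, -6.74 to 1.11) in NK/ILC cells (3 of 31 higher, 3 lower). The ZsG-positive NK/ILC cell that held all 532 Gzmf UMIs also held 271 Gzmg UMIs, so the Gzmg ratio rests largely on it. Of all genes, 3.21% were at least 2-fold higher and 2.56% lower in CD8 T cells of the T cell sort. These shares were 6.64% and 3.39% in its Foxp3+ T cells, and 3.37% and 5.38% in its Cd4+ Foxp3- T cells. In the CD45 sort they were 4.51% and 3.55% in CD8 T cells, and 7.01% and 5.48% in NK/ILC cells.

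Within the same list, Ifng was higher in Pdcd1+ Havcr2+ cells of all 4 libraries (by 3.01, 1.94, 1.98 and 1.56 on the log2 scale, in the order of libraries above). Gzmm, which encodes a further granzyme, was lower in 3 (-4.30, -2.72 and -3.74, the first with 1 UMI and an interval of -9.62 to -1.76), as was Fas (-1.39, -1.04 and -1.63). Tcf7 was lower in all 4 (-4.27, -4.47, -4.84 and -6.81, the last with 1 UMI and an interval of -12.15 to -4.27), but it took part in setting 2 of the gates it is compared with. In total 6 of 30, 4 of 30, 4 of 31 and 5 of 29 genes of the list were at least 2-fold higher and 5, 3, 4 and 1 lower. Of all genes, 9.63%, 6.67%, 7.79% and 6.51% were higher and 13.7%, 8.15%, 10.2% and 5.47% lower. With Ly49 in NK/ILC cells, 4 of 31 genes of the list were higher (Gzmg, 147 against 1 UMIs, 4.50, 2.00 to 9.81; Serpinb9b, 2.23; Eomes, which encodes an NK transcription factor, 1.20; Gzmm, 1.16) and 2 lower (Lta, -3.58; Tnfsf10, which encodes the death ligand TRAIL, -1.45). Of the 147 Gzmg UMIs, 97 and 30 were in 2 Ly49+ cells. In this Ly49 comparison, 3.49% of all genes were higher and 3.46% lower.

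Over 23 sums of 1 cell group in 1 library, each with at least 50 cells, the genes most like each member were read from Pearson's r of log2(CPM + 1), among 9619 genes. These sums share libraries and tumors, so r is a description. Gzmb was most like Ubash3b (0.97), Tnfrsf9 (0.96) and Ptpn7 (0.95), and Prf1 like Serpinb6b (0.95), Serpinb9 (0.95) and Ctsd (0.94). Fasl was most like Il18rap (0.98), Klrc2 (0.95) and Lax1 (0.95), Gzma like Gm14029 (0.91), Dapk2 (0.91) and Jak1 (0.89), Gzmc like Anxa2 (0.92), Tubb6 (0.91) and 2900026A02Rik (0.90), and Gzmk like Cxcr6 (0.88), Themis (0.88) and Tcof1 (0.87). Among the members, Gzmb went with Nkg7 (0.94) and Prf1 (0.90) more closely than with Gzma (0.55), and Gzmk had its lowest r with Gzmd (-0.39), Gzme (-0.34) and Gzmf (-0.09).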

How the data were processed

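Single-cell RNA-seq counts came from 4 libraries (10x Chromium 3′ v3.1). The deposited UMI counts were made by the authors with Cell Ranger 6.1.2 on mm10, though 7.0.0 stands in the CD45 matrix itself. The 2 libraries of each sort were combined in 1 matrix by the authors, and no source used here says whether depth was evened then. The filters were those of the study: 1000 to 6000 genes and under 10% mitochondrial UMIs (CD45 sort), or at least 50 and under 6000 genes, under 15% mitochondrial and at least 0.055% CD3 UMIs (T cell sort, T cells). They left 4699, 4123, 659 and 780 cells of the CD45 ZsG-negative, CD45 ZsG-positive, T cell ZsG-negative and T cell ZsG-positive libraries, or 948 and 1879 in the T cell sort without the CD3 limit. Between 1 and 6 barcodes were shared by any 2 libraries.

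T cells had at least 2 UMIs each of CD3 and T cell receptor genes and no Ncr1, NK/ILC cells at least 2 UMIs of Ncr1, Klrb1c and Klre1, and pDC at least 3 of Siglech, each with under 0.1% of UMIs from 7 macrophage genes. Cells with at least 2 UMIs of the CD3 genes and a UMI of Ncr1 entered no gate. T cells with UMIs of the CD8 genes beside UMIs of Cd4 or Foxp3 fell among the T cells outside the CD8 and CD4 gates. No doublet caller was run. Counts were summed per gate and library and given as CPM, per 1000000. Ratios carry exact conditional and levels exact Poisson 95% intervals. A gene counted as past the fold at a log2 ratio of 1 with at least 20 UMIs over both groups, and a count of 0 was set at 3 UMIs. Every member was to be named in each comparison, and the pathway genes past the fold; 1 gene of the pathway list and 1 of the naive-like gate are not reported here. The 10 genes, the gene lists and the gates were chosen with earlier results of these data known. Self-tests on simulated data were run. Work was done in Python 3.11.15 (scipy 1.17.1 for intervals, numpy 2.4.6, biopython 1.88 for identities, pandas 2.3.3 for tables), with edgeR 4.0.16 for 1 alternative. Other alternatives changed the filters, macrophage limit, marker minimum, scaling and depth.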

Additional observations from a re-analysis of the deposited data

Results flagged for a closer look

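The Gzmf log2 ratio of ZsG-positive over ZsG-negative cells was 6.02 in NK/ILC cells of the CD45 sort and -4.76 in CD8 T cells of the T cell sort, so that the 2 cell types pointed in opposite directions. This difference was not tested, since each condition is 1 library. The first value rests on 1 ZsG-positive cell that held 532 of 532 Gzmf UMIs, and the second on 1 ZsG-negative cell that held 85 of 106. In CD8 T cells of the CD45 sort the ratio was 0.64.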

How the results depend on the processing

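Of the alternatives, 15 at most could be set beside a value. Levels kept within their counting intervals in 2256 of 2980 cases, thinned shares in 2844 of 2980 and log2 ratios in 1377 of 1817. Some of these could not move. The per-cell mean and the total without mitochondrial and ribosomal protein genes leave the shares as they are (260 cases each). No minimum of UMIs leaves the ratios as they are (143 cases). Counts, mostly of genes past 2-fold, stayed within 1.5 times in 233 of 290 cases. Of the ratios 19 reversed, and only those past 2-fold could count as reversed. The number of levels of at least 100 CPM (92) and of thinned shares of at least 10% (96) stayed within 1.5 times in each alternative. The cause of each move below was not tested, and the thinning before gating and the removal of single cells were chosen after seeing the data.

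In CD8 T cells of the T cell sort, 2 genes in place of 1 were lower in ZsG-positive cells with no filter on cells, a mitochondrial limit of 5%, no macrophage gene limit, no minimum of UMIs or 2 UMIs of the defining marker. The count was 0 with cells thinned to 2000 UMIs after or before gating (which made 1 higher) and without the 5% of cells with the most UMIs. In Foxp3+ T cells of that sort the 2 higher genes became 0 with thinning, 1 without those 5% and 1 with thinning before gating, and 1 was lower with no minimum. In Cd4+ Foxp3- T cells the 1 lower gene became 2 with no minimum, and 0 with 2 UMIs of the marker or thinning before gating, which made 1 higher.

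In CD8 T cells of the CD45 sort the 1 higher gene became 0 with no macrophage gene limit, thinning, the mean of per-cell values and without the 5%, where Gzmd turned to -0.85, and the 1 lower gene became 0 with thinning and the per-cell mean. In NK/ILC cells 7 genes in place of 0 were lower with no macrophage gene limit. Without the 5% there, 0 were higher and 2 lower (Gzme -1.11, Gzmf -0.60), and without the top Gzmd, Gzme and Gzmf cell of both libraries 1 was higher and 1 lower (Gzmd -0.049, Gzmf -1.40). Without that of the ZsG-positive library alone 0 were higher and 1 lower (Gzmd -0.83, Gzmf -1.40). Both Gzmf values have 0 set at 3 UMIs.

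For Ly49, the 5 higher genes became 1 with thinning or the per-cell mean (Gzme -0.066), 3 without the 5% (Gzme -2.82), with 2 UMIs of the marker or without the top cell, and 0 with thinning before gating (Gzmd -2.46, Gzme -3.45). There 3 were lower, and 1 was with a mitochondrial limit of 5%, thinning, the per-cell mean and without the 5%.

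For Pdcd1+ Havcr2+ cells, thinning before gating left 1, 1, 2 and 0 higher genes in the T cell ZsG-negative, T cell ZsG-positive, CD45 ZsG-negative and CD45 ZsG-positive libraries. It made 2 lower in the CD45 ZsG-negative library, and Gzmb -0.0081 and Prf1 -0.51 in the CD45 ZsG-positive one. There 1 was lower with a macrophage gene limit of 0.2%, thinning, the per-cell mean and without the 5%. The T cell ZsG-negative library had 2 lower at a mitochondrial limit of 5%. For the T cell ZsG-positive library, 2 were lower with no filter, the 0.2% limit, a total without mitochondrial and ribosomal protein genes, TMM factors, without the 5% and with 2 UMIs of the marker.

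By gate, Gzma in Pdcd1+ Havcr2+ cells of the T cell sort turned to 0.27 with 2 UMIs of the marker. In T cells of the CD45 sort outside the CD8 and CD4 gates, Gzmc turned to 0.67 with no macrophage gene limit, Gzmk to 0.75 with the per-cell mean and 0.090 without the 5%, and Prf1 to 0.039 without the 5% and 0.073 with thinning before gating. No paired analysis was possible because each condition has 1 library and the labels give no replicate numbers, and no library could be left out. Depth limits Gzmd, Gzme, Gzmf and Gzmk most, since most gates held under 20 of their UMIs.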

Other observations

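Of the CD45 ZsG-negative library, 250 cells held at least 2 UMIs of the CD3 genes and a UMI of Ncr1, and belonged to none of the gates. Their median was 9245.5 UMIs, and they held Gzma at 2172 CPM (UMIs per 1000000), Gzmc at 1879, Nkg7 at 1606, Gzmb at 1305, Prf1 at 679 and Gzmk at 17.0. The Gzma level lies between those of Ly49- NK/ILC cells and CD8 T cells, and the Gzmc level lies above that of both.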
